A study of Arabidopsis thaliana with 16 samples.

Results

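Petals of Arabidopsis thaliana that overexpress CONSTANS (CO) were compared with wild-type petals at dusk, across all genes. The comparison rests on 4 of the 16 RNA sequencing libraries of the series: 2 of 35S:CO petals and 2 of Col-0 petals, all collected at ZT16. 35S:CO carries CO behind the viral 35S promoter, which is active in most plant cells and at all hours, so CO is high outside its usual place and time; Col-0 is the wild type. Plants grew in long days of 16 h light and 8 h dark, and ZT counts hours after lights on, so ZT16 is the end of the light period. Values from other libraries are given beside these where they bear on a gene: petals of co-10, a null mutant of CO, at ZT16, petals of all 3 genotypes at ZT4, and whole seedlings of 10 days of 35S:CO and Col-0 at ZT16. The labels name no further allele or agent for any of these groups. The labels call the 2 libraries of a group biological replicates and do not say how many plants each holds, nor whether 35S:CO is a single line.

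CO is a transcription factor with a B-box region and a CCT domain. In leaves its protein builds up at the end of long days, when light keeps it from being degraded, and it then activates FT, whose protein travels to the shoot tip and starts flowering. The CCT domain binds DNA together with NF-Y subunits, at elements that hold TGTG. A petal is a floral organ with few chloroplasts, in which many transcripts swing between morning and dusk.

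The deposited values are FPKM, read numbers scaled to transcript length and library size, for 32833 loci, and 17876 loci at 1 FPKM or more in at least 2 of the 12 petal libraries were tested. Depth, estimated from the steps between low values, was 14250000 to 18070000 reads in the 4 libraries, an estimate and not a count. Ribosomal RNA loci held 8.37% and 38.8% of the summed FPKM in Col-0 and 12% and 35.2% in 35S:CO, so replicate 2 was high in both groups. On the first principal component of the 12 petal libraries, with 46.5% of the variance, every ZT4 library scored below 0; the Col-0 ZT16 libraries scored 85.2 and 72.2, the 35S:CO ZT16 libraries 43.2 and 29.6 and the co-10 ZT16 libraries 44.2 and 102.2. AP3, a petal and stamen identity gene, was at 274.9 to 576.6 FPKM in these 4 libraries, which cannot tell petals from stamens. Pollen and anther markers were also abundant: the 8 measured markers summed to 2690 to 4100 FPKM in Col-0 and 1420 to 2260 FPKM in 35S:CO, with 2 of the 8 at 0 in both libraries of Col-0 and 3 of 35S:CO. Carpel, ovule and seed markers summed to 20.4 to 36.2 FPKM and root markers to 6.1 to 9.09 FPKM.

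Several promoters, a choice among the genes that follow, are shown first: FT and its relative TSF, 3 B-box genes and an antenna gene. Each window is the 250 bases before the annotated start of the gene in TAIR10.1, read 5′ to 3′ on the gene's strand, and capitals mark the letters CCACA, on either strand, and the palindromic G-box, CACGTG, which bZIP and bHLH factors bind; the 2 motifs can overlap. The windows are chr1:24331123-24331372 on the plus strand for FT, chr4:11003011-11003260 on the minus strand for TSF, chr4:8708591-8708840 on the plus strand for BBX30, chr3:7413728-7413977 on the minus strand for BBX32, chr2:13381517-13381766 on the plus strand for STH and chr3:10255656-10255905 on the plus strand for LHCB2.3.
FT: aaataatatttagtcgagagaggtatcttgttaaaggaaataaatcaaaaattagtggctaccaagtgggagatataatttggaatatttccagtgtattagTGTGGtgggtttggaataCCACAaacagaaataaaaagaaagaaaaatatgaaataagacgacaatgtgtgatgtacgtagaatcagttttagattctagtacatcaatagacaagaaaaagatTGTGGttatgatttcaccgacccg
TSF: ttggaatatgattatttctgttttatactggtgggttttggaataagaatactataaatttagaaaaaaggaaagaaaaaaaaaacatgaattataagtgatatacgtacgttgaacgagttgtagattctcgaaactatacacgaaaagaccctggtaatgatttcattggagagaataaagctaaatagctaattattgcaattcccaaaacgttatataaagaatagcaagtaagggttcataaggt
BBX30: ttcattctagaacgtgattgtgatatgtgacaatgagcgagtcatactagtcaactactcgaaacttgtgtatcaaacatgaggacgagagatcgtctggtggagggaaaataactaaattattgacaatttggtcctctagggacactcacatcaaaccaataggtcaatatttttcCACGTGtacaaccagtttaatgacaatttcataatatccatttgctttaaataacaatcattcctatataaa
BBX32: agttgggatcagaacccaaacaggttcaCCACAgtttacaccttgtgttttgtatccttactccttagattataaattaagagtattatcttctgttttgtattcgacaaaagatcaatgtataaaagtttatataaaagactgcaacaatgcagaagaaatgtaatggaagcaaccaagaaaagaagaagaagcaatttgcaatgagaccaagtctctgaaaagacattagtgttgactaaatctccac
STH: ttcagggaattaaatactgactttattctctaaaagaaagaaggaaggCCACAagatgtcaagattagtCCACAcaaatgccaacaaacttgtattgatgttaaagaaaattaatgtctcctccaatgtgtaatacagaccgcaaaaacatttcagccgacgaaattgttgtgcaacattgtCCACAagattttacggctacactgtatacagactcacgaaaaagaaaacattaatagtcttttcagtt
LHCB2.3: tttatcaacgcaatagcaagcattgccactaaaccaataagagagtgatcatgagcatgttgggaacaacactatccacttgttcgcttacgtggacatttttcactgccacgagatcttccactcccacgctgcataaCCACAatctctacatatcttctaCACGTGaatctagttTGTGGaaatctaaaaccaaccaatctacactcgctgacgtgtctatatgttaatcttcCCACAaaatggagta
The windows of FT, STH and LHCB2.3 each hold 3 copies of CCACA, that of BBX32 holds 1, and those of TSF and BBX30 hold 0. The shorter TGTG was neither marked nor counted where it lies outside a copy of CCACA on either strand. It occurs in this way in the windows of FT, BBX30, BBX32 and STH, so 0 copies of CCACA, as in BBX30, does not mean that TGTG is absent. Whether CO binds any of these windows was not tested. CACGTG stands once each in the windows of BBX30 and LHCB2.3. Windows also read but not printed were those of BBX31, LEA3, CCL, RVE8 and LHY. Those of BBX31, LEA3 and CCL hold 0 copies of CCACA and of CACGTG. That of RVE8 holds 1 CCACA, and that of LHY holds 2 CCACA and 1 CACGTG.

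CO itself was listed at 0.0376 and 0.1913 FPKM in Col-0 petals at ZT16 and at 625.4 and 506.8 FPKM in 35S:CO. The groups were far apart, and CO (AT5G15840, chromosome 5, 5170162 to 5173085, minus strand) rose by 8.99 ± 0.33 (SE) on the log2(FPKM + 1) scale (limma, adjusted p = 3.93e-07), which checks the genotype labels. In co-10 it was at 0.06215 and 0.1631 FPKM, so that at dusk the mutant could not be told from wild-type petals by its CO level. AT5G15843, an uncharacterized gene on the opposite strand inside CO, went from 0 in both Col-0 libraries to 5.919 and 4.84 FPKM; whether the counting used strand is not stated, so its reads and those of CO cannot be told apart.

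Of the 17876 loci, 204 changed, or 1.14%, with 153 higher in 35S:CO (0.856%) and 51 lower (0.285%), by limma with Benjamini-Hochberg adjustment at 0.05. The median difference over all tested loci was 0.0. Where a group is listed at 0, the size of the difference depends on the added 1 FPKM. Most called changes were large: 123 of the higher genes and 43 of the lower genes differed by at least 2 on the log2 scale. The smallest differences that passed were 1.45 and -1.36. With 2 libraries per group smaller changes went uncalled, so these sizes do not describe all effects. The higher genes were scarce in wild type, with a median of 1.88 FPKM in Col-0 against 26.4 in 35S:CO, and 26 of them were at 0 in both Col-0 libraries. The lower genes went the other way, from a median of 15.5 FPKM to 1.19. Which genes pass depends on single libraries: leaving out Col-0 replicate 1 or 2 left 63 or 82 changed genes, leaving out 35S:CO replicate 1 or 2 left 48 or 57, and 37 of the 204 passed every time.

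Among flowering genes, the florigen gene FT rose the most. FT (AT1G65480, chromosome 1, 24331373 to 24333999, plus strand) was at 1.68 and 1.354 FPKM in Col-0, at 0.7943 and 1.484 in co-10 and at 812.7 and 352.4 in 35S:CO. It rose by 7.74 ± 0.71 (adjusted p = 3.72e-04), with the 2 overexpressor libraries apart by more than a factor of 2 and both far above wild type. TSF, the closest relative of FT and also a florigen, was at 0 and 1.985 FPKM in Col-0 and at 35.22 and 14.64 in 35S:CO, and rose by 3.78 ± 0.58 (0.0104). CDF3 and AT1G69570, genes of the cycling DOF family whose members repress CO and FT in the morning, rose by 2.14 ± 0.42 and 1.75 ± 0.31. These 4 were the called members among 25 tested in a list of flowering genes, none was lower, and the median of the list was 0.14. This list and those that follow were chosen with earlier results of these data known, so their counts are only descriptions. AT1G65490, the next tested gene beyond FT, picked after its values were seen, rose by 2.59 ± 0.37, from 0 and 0.3798 FPKM to 7.726 and 4.709.

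B-box relatives of CO rose in 5 of 21 cases, and all 5 belong to the classes with B-boxes and no CCT domain. Of 31 relatives written in the list, 23 were kept and 21 tested. COL6, COL8, COL10 and other relatives with a CCT domain were not among those tested, so that class is only partly covered. BBX30 was at 0.08393 and 0 FPKM in Col-0 and at 19.5 and 20.59 in 35S:CO, a rise of 4.34 ± 0.27 (adjusted p = 2.93e-05). BBX31 went from 0 in both Col-0 libraries to 10.98 and 13.46 FPKM, a rise of 3.72 ± 0.43 (0.00182). Both encode microproteins that in Arabidopsis bind CO and bridge it to TOPLESS repressors. STH, also called BBX25, which interferes with the light-signalling factor HY5, went from 2.252 and 0 FPKM to 25.54 and 32.12, a rise of 4.04 ± 0.46 (0.00166). BBX32, a further antagonist of HY5-dependent light signalling, went from 1.287 and 1.475 FPKM to 16.29 and 30.73, a rise of 3.30 ± 0.47 (0.00684). BBX19, which binds CO and delays flowering, went from 1.03 and 0.8055 FPKM to 8.425 and 9.937, a rise of 2.41 ± 0.36 (0.00862). In co-10 all 5 stood at 2.448 FPKM or less, below both overexpressor libraries. None of the 21 fell, and the median of the list was 0.56. BBX30, BBX31 and STH passed with each of the 4 libraries left out, whereas BBX19 passed in none of these fits and BBX32 in 1.

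**Figure D1:**
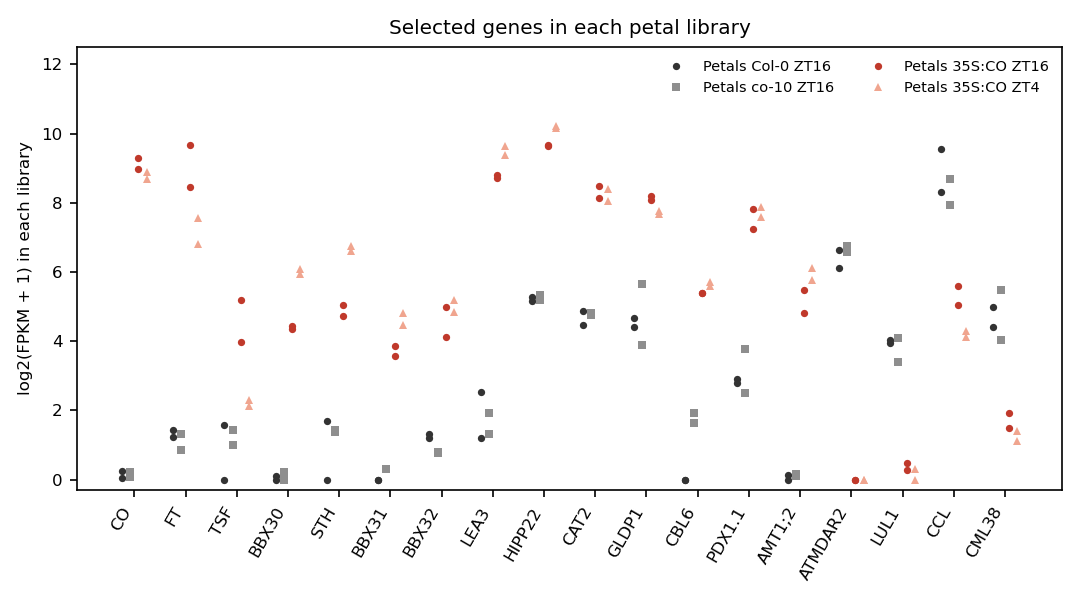
Level of selected genes, log2(FPKM + 1), with 1 symbol per library: Col-0 (black circles) and co-10 (grey squares) petals at ZT16, 35S:CO petals at ZT16 (red circles) and at ZT4 (pale triangles). From CO to AMT1;2 the 35S:CO symbols lie above both other genotypes at ZT16, and from ATMDAR2 to CML38 below them.

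Among clock genes, 2 of the morning-phased group rose. LHY, a morning MYB factor of the core clock, went from 1.118 and 3.394 FPKM to 14.38 and 26.92, a rise of 2.76 ± 0.48 (adjusted p = 0.0215). RVE8, a related MYB factor that activates evening genes, went from 1.103 and 2.507 FPKM to 15.55 and 18.3, a rise of 2.72 ± 0.35 (0.00351). ASG4, a further MYB factor of this family, which is outside the list and was picked after its values were seen, rose by 2.79 ± 0.46 (0.0143). None of the 14 morning-phased genes tested fell, and 13 of 14 were above 0. Their median was 0.59, against 0.0 for all tested loci, of which 0.856% were called higher. None of 13 evening-phased genes passed; ELF4, of the evening complex, was at 224.6 and 119.2 FPKM in Col-0 and 53.94 and 66.86 in 35S:CO (-1.43 ± 0.47, adjusted p = 0.264).

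In the antenna, photosystem and carbon fixation lists 3 genes were called, for an antenna protein, Rubisco activase and a Rubisco subunit. LHCB2.3, a light-harvesting antenna protein, went from 0 and 0.1439 FPKM to 81.61 and 46.14, a rise of 5.87 ± 0.51 (adjusted p = 2.68e-04), and was the 1 called member among 22 antenna genes with a median of 0.06. None of 22 photosystem subunit genes passed, with a median of 0.08. RCA, which activates Rubisco, went from 226.4 and 230.3 FPKM to 1478 and 1475, a rise of 2.69 ± 0.36 (0.00456). RBCS3B, a Rubisco small subunit that shares 11.5% of its 75-base stretches with other loci, went from 323.3 and 176 FPKM to 2374 and 1794, a rise of 3.11 ± 0.56 (0.0243). These were 2 of 19 carbon fixation genes, with 0 lower and a median of 0.65. LHCB2.3, RCA, STH, CAT2, GLDP1, MIPS2, COR15B, ABF3, CT-BMY and LUL1 each overlap a gene on the opposite strand in TAIR10.1, so part of their reads may come from it.

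Photorespiration, which recovers carbon after Rubisco takes up oxygen, had 6 of 18 listed genes higher and 0 lower, with a median of 0.84; this list was drawn up after the values were seen, so its count is only a description. CAT2, the catalase that removes peroxisomal hydrogen peroxide, went from 21.16 and 28.31 FPKM to 353.6 and 278.2, a rise of 3.63 ± 0.32 (adjusted p = 2.66e-04). GLDP1, a subunit of the glycine decarboxylase of mitochondria, went from 20.41 and 24.58 FPKM to 268.8 and 294.1, a rise of 3.59 ± 0.49 (0.00473), and its paralogue GLDP2 rose by 2.18 ± 0.41. Peroxisomal aminotransferases rose with them: AGT by 2.45 ± 0.27, AOAT2 by 1.97 ± 0.29 and GGT1 by 1.79 ± 0.32. Other steps did not pass, among them GOX1, a glycolate oxidase, at 26.2 and 27.65 FPKM in Col-0 and 49.41 and 45.89 in 35S:CO (adjusted p = 0.462), and the plastid glutamine synthetase GS2, at 169.3 and 150.2 against 156.6 and 174.7 FPKM.

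**Figure D2:**
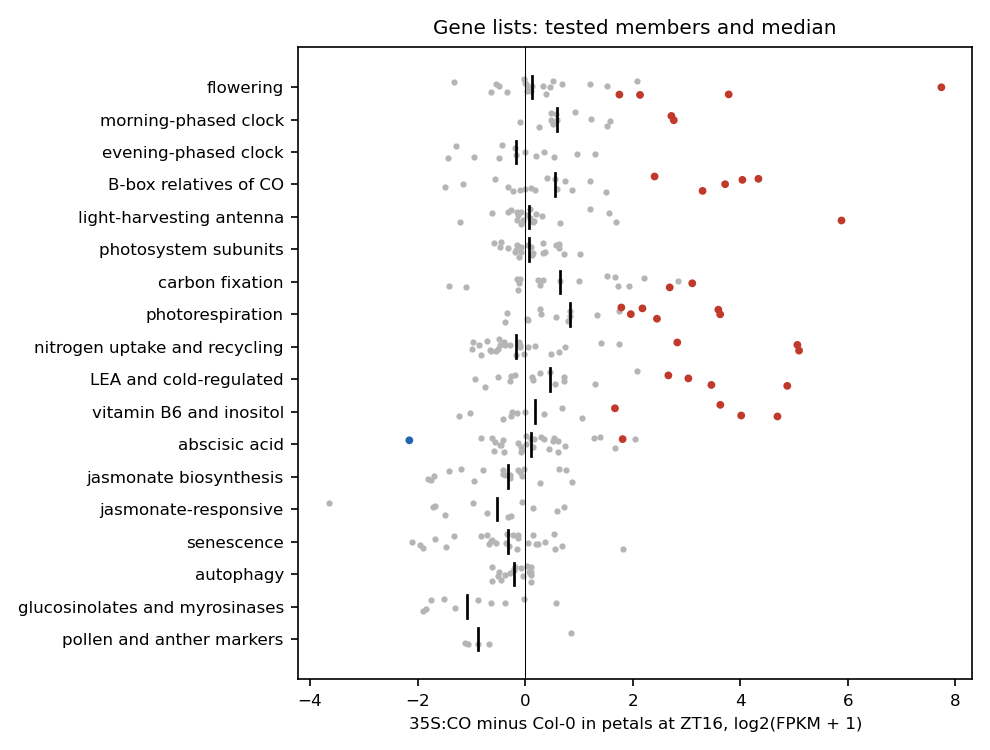
Difference between 35S:CO and Col-0 petals at ZT16, log2(FPKM + 1), for every tested member of 18 gene lists, with 1 point per gene; points are spread vertically only for legibility, coloured points passed the test (red higher, blue lower) and the bar is the median of the list. Coloured points are mostly far to the right of the medians, which lie between -1.09 and 0.84.

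Of 29 tested nitrogen genes, 3 rose. AMT1;2, a high-affinity ammonium transporter, went from 0 and 0.09611 FPKM to 43.89 and 27.39, a rise of 5.09 ± 0.36 (adjusted p = 7.16e-05). ARGAH2, an arginase that releases urea from arginine, went from 3.215 and 0.737 FPKM to 121 and 65.86, a rise of 5.06 ± 0.60 (0.00191). NIA2, the main nitrate reductase, went from 7.986 and 8.735 FPKM to 68.31 and 62.77, a rise of 2.83 ± 0.46 (0.0133). The other 26 nitrogen genes did not pass, and the median of the list was -0.17.

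Late embryogenesis abundant (LEA) and cold-regulated genes, whose products protect membranes and proteins when water is short, rose in 4 of 19 cases, and a further LEA gene outside the list rose more. This gene, LEA3 (AT1G02820), went from 4.787 and 1.291 FPKM to 423 and 449.5, a rise of 6.91 ± 0.47 (adjusted p = 4.63e-05). LEA4-5 went from 0 and 3.149 FPKM to 61.51 and 56.01, a rise of 4.87 ± 0.78 (0.0129). COR15B rose by 3.46 ± 0.61, KIN2 by 3.03 ± 0.61 and COR15A by 2.66 ± 0.41; COR15A and COR15B, adjacent genes, protect chloroplast membranes in the cold. With LEA4-5 these were the called members, with 0 lower and a median of 0.46. Of 31 abscisic acid genes, ABA1, a zeaxanthin epoxidase of abscisic acid synthesis, rose by 1.81 ± 0.29, and ABF3, a bZIP factor that acts on abscisic acid responses, fell by 2.15 ± 0.35. CYP707A4, an enzyme that breaks abscisic acid down and was picked after its values were seen, rose by 4.2 ± 0.54.

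Vitamin B6 and inositol genes rose in 4 of 14 cases, in a list also chosen with earlier results of these data known. PDX1.1, a subunit of pyridoxal phosphate synthase, went from 6.422 and 5.898 FPKM to 224.5 and 150.5, a rise of 4.69 ± 0.38 (adjusted p = 1.83e-04), and PDX1L4 next to it rose by 4.02 ± 0.41; they share 32.7% and 43.9% of their 75-base stretches with each other, so their reads may be split. PPOX, a further vitamin B6 gene of the list, rose by 1.67 ± 0.32. MIPS2, which makes the inositol ring, went from 1.962 and 3.61 FPKM to 36.66 and 54.52, a rise of 3.63 ± 0.35 (5.53e-04). Further large rises were spread over other gene families. HIPP22, a heavy-metal-associated protein, went from 37.57 and 34.45 FPKM to 801.8 and 815.5 (4.45 ± 0.38, 2.35e-04). CBL6, a calcineurin B-like protein and the 1 gene of 14 calcium sensors that rose, went from 0 in both Col-0 libraries to 41.04 and 41.29 FPKM (5.40 ± 0.27, 3.34e-06), with 2.781 and 2.079 in co-10. AT3G50560, a Rossmann-fold protein of unknown role, went from 0 in both to 141.5 and 130.9 FPKM. AT1G24580, a RING/U-box protein, went from 0 and 0.5565 FPKM to 29.71 and 35.26 and passed with each library left out. AT1G35290, a thioesterase family protein, went from 22.55 and 21.51 FPKM to 574.8 and 444.4, with 53.82 and 6.503 in co-10, and did not pass in any fit that left out 1 of the 4 libraries. UP6 and AT3G47295, at 0 in both Col-0 libraries and at 20.43 to 79.65 FPKM in 35S:CO, each overlap a gene on the opposite strand.

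Sugar and phenylpropanoid lists held 1 called gene each. GBSS1, which makes amylose and was the 1 called of 16 starch synthesis genes, went from 0 in both Col-0 libraries to 12.84 and 5.775 FPKM (3.28 ± 0.43, adjusted p = 0.0041), the beta-amylase CT-BMY, the 1 called of 20 starch breakdown genes, rose by 2.04 ± 0.38, and the sucrose exporter SWEET13, the 1 called of 20 sugar transport genes, rose by 2.76 ± 0.56. PAL2, a phenylalanine ammonia-lyase at the entry to phenylpropanoids, rose by 2.37 ± 0.37 and was the 1 called of 17 flavonoid and anthocyanin genes. Picked after their values were seen, PAL4 rose by 2.85 ± 0.40, the arogenate dehydratase ADT5 by 2.27 ± 0.34 and CHIL, which assists chalcone synthase, by 3.23 ± 0.33. None of 30 genes of light signalling and CO partners passed, with a median of -0.01. PHOT1, a blue-light receptor, was also picked after its values were seen and went from 1.771 and 3.942 FPKM to 29.45 and 41.55 (3.28 ± 0.49, 0.00862).

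Lower genes were fewer, and 4 of them were members of the lists. CCL, a CCR-like protein, went from 744.6 and 316.7 FPKM to 32.01 and 47.06, a fall of 3.61 ± 0.45 (adjusted p = 0.0031), and in co-10 stood at 243.8 and 411.6. CML38, a calmodulin-like protein and the 1 calcium sensor that fell, went from 20.26 and 30.47 FPKM to 1.795 and 2.825 (-2.98 ± 0.48, 0.0129). CSLE1, a cellulose synthase-like enzyme, fell by 3.11 ± 0.41, the beta-glucosidase DIN2, the 1 called of 20 sugar starvation genes, by 2.84 ± 0.59, and the linker histone HIS1-3 by 2.57 ± 0.44. The neighbours CYP706A1 and CYP706A2, the latter picked after its values were seen, fell by 2.78 ± 0.40 and 2.52 ± 0.39, and share 42.7% and 55.5% of their 75-base stretches with each other. AT1G17820, a protein of unknown role, fell by 3.34 ± 0.62 and AT1G76520, of the auxin efflux carrier family, by 3.06 ± 0.59. MIR826a, a miRNA locus that overlaps MIR826b on the opposite strand, fell by 2.79 ± 0.52. Pollen markers did not pass: VGD1, a pollen pectin methylesterase, was at 1139 and 1838 FPKM in Col-0 and 777.5 and 566.3 in 35S:CO (-1.12 ± 0.45, adjusted p = 0.412). Of the 5 tested pollen and anther markers 4 were below 0 and 0 passed. The median of these markers was -0.88, against 0.0 for all tested loci. Their part in the lower genes was not tested. In whole petals fewer cells of a type and less RNA per cell cannot be told apart.

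Lists on petal aging held 0 called genes, which at these list sizes is near the 1.14% called among all loci. None of 28 senescence genes, 18 autophagy genes, 20 genes of jasmonate biosynthesis, 31 of jasmonate signalling and catabolism or 12 jasmonate-responsive genes passed. Their medians were -0.32, -0.2, -0.33, 0.16 and -0.52. MYB57, a petal MYB factor downstream of jasmonate, was at 43.16 and 39.41 FPKM in Col-0 and 143 and 217 in 35S:CO (2.07 ± 0.45, adjusted p = 0.0617). WRKY75, a promoter of senescence, was at 94.6 and 52.84 against 20.23 and 15.15 FPKM (-1.95 ± 0.57, 0.191). None of 10 glucosinolate and myrosinase genes passed, with 9 of 10 below 0 and a median of -1.09, against 0.0 for all tested loci. ESM1, which modifies the products of glucosinolate breakdown and was picked after its values were seen, went from 0 and 0.6542 FPKM to 24.66 and 21.32 (4.22 ± 0.79, 0.0298). Floral organ identity genes also held 0 called members of 8 tested, with 7 above 0 and a median of 0.5, against 0.0 for all tested loci. The 9 measured summed to 1040 to 1310 FPKM in Col-0 and 1580 to 1840 FPKM in 35S:CO, without overlap. Of all 17876 tested loci, 4121 also stood higher in 35S:CO without overlap, so this alone does not mark a change. The lists for chlorophyll synthesis and breakdown, ethylene, abscission, salicylic acid defence, gibberellin and expansins held 0 called genes as well.

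The lower genes included a cluster on chromosome 5. ATMDAR2, a monodehydroascorbate reductase that recycles ascorbate, the 1 of 19 ascorbate and antioxidant genes that fell, was at 97.49 and 68.71 FPKM in Col-0, at 106.1 and 93.53 in co-10 and at 0 in both 35S:CO libraries (-6.37 ± 0.28, adjusted p = 1.28e-06). It was also at 0 in both 35S:CO petal libraries at ZT4, against 209 and 178.9 FPKM in Col-0. AT5G03285, a non-coding RNA locus, went from 116 and 107.6 FPKM to 0 and 0.2809 (-6.64 ± 0.67, 6.21e-04). LUL1, a ubiquitin ligase, went from 14.26 and 15.46 FPKM to 0.2102 and 0.3895 (-3.61 ± 0.36, 5.92e-04). AT5G03495 fell by 3.13 ± 0.56 and AT5G03550, picked after its values were seen, by 2.67 ± 0.52. The 5 lie within 164 kb, between 760319 and 924728, where 41 genes were tested, and the 36 others had a median of -0.12. Of 237 windows of 500 kb along the 5 nuclear chromosomes, this one held the most lower genes, 5 of 115 tested; the next held 2, and 193 held 0. The interval lies 4.25 Mb from CO on the same chromosome. Across the genome, 10 pairs of called genes were next to each other in the order of tested genes, and all 10 moved the same way. None of these pairs lies in the cluster. Since 153 of the 204 called genes were higher, many pairs would agree in any order. The pairs include CO with AT5G15843, PDX1L4 with PDX1.1 and CYP706A1 with CYP706A2, whose reads may be shared.

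**Figure D3:**
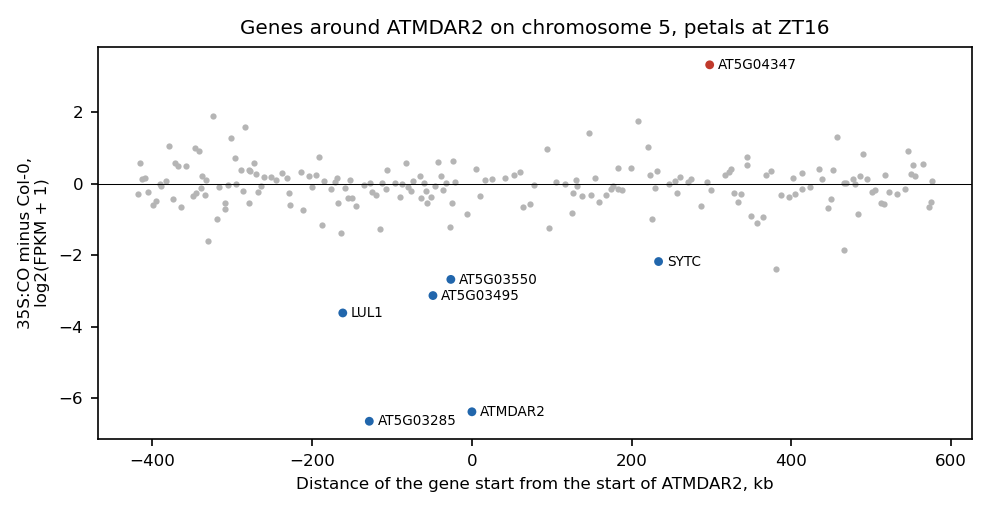
Difference between 35S:CO and Col-0 petals at ZT16, log2(FPKM + 1), for each tested gene around ATMDAR2, by distance of its start from that of ATMDAR2 in kb. Blue points are lower and the red point higher in 35S:CO; the 5 genes from LUL1 to ATMDAR2 lie among uncalled genes near 0.

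Libraries outside the groups compared showed how far the changes recur, though the ZT4 petals shared the fit and its estimate of spread. In seedlings at ZT16, 11.7% of 19214 genes changed (5.5% higher, 6.22% lower). Of the 153 genes higher in petals, 140 were tested in seedlings, and 91 (65.0%) were higher there and 4 lower; these 91 are 8.61% of the genes higher in seedlings. Of the 51 lower genes, 42 were tested, with 9 (21.4%) lower and 3 higher. In petals at ZT4, where 0.106% of genes changed (0.0895% higher, 0.0168% lower), 13 of the 153 rose and 2 of the 51 fell, which is 81.2% of the 16 higher and 66.7% of the 3 lower genes there. Called in the same direction in all 3 settings were CO, FT, LEA3, HIPP22, MIPS2, CAT2, PDX1.1, PDX1L4, AT2G25510 and AT2G38905 as higher and ATMDAR2 and LUL1 as lower. Leaving out 35S:CO seedling replicate 1 or 2 cut the seedling calls from 2252 to 54 or 138, so the seedling shares rest on both.

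**Figure D4:**
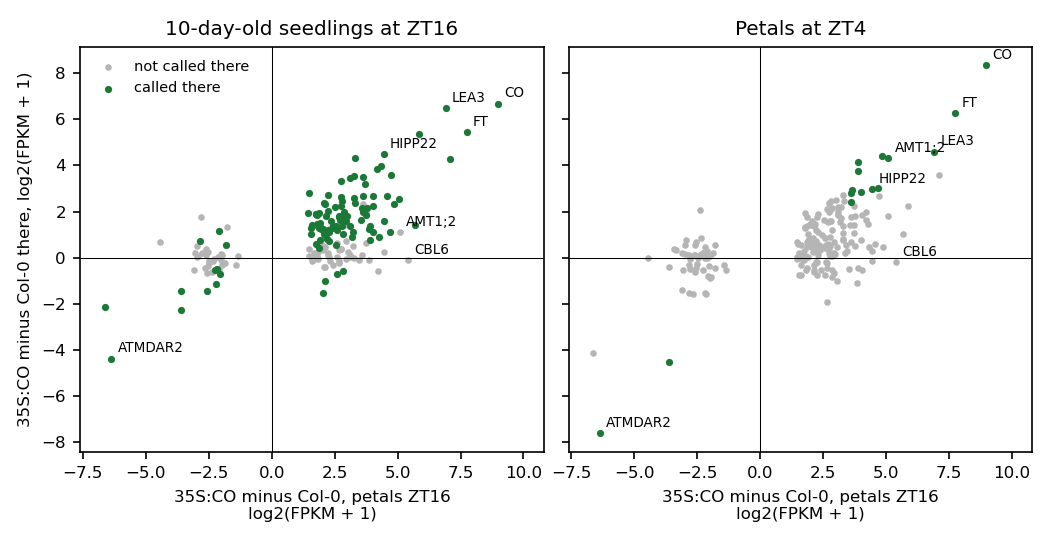
For the 204 genes called in petals at ZT16, the 35S:CO minus Col-0 difference there (horizontal axis) against that in seedlings at ZT16 (left) and in petals at ZT4 (right), all as log2(FPKM + 1). Green points were called in the second setting; CO, FT and LEA3 lie at the upper right of both panels and CBL6 near 0 in both.

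The tests of the difference between settings named fewer genes. Between ZT16 and ZT4 in petals, 0.0224% of genes differed in their response to 35S:CO, and these 4 were CBL6, COR15A, UP6 and BBX30, each with the more positive difference at ZT16. COR15A differed by -1.92 at ZT4, where it did not pass, with 395.9 and 246.9 FPKM in Col-0 and 103.1 and 65 in 35S:CO. CBL6 shows the pattern: at ZT4 it was at 51.83 and 60.99 FPKM in Col-0 and 51.01 and 47.37 in 35S:CO, and at ZT16 it was at 41.04 and 41.29 FPKM in 35S:CO but at 0 in both Col-0 libraries. Between petals and seedlings 1.55% of genes differed, 0.769% with the more positive and 0.783% with the more negative difference in petals. AMT1;2 is one of the former, with 28.17 and 16.99 FPKM in Col-0 seedlings and 47.52 and 48.78 in 35S:CO seedlings.

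The morning level of these genes can be read in co-10 petals, whose libraries are in neither group compared. They entered the same fit, and so helped to set the filter and the estimate of spread behind the calls. The shares below are therefore not independent of those calls. From ZT4 to ZT16 in co-10, 4.79% of all tested genes fell and 8.51% rose. Of the 153 genes higher in 35S:CO at dusk, 90 (58.8%) fell from ZT4 to ZT16 in co-10 and 3 rose, with a median of -1.82 against 0.21 for all genes. Of the 51 lower genes, 32 (62.7%) rose and 0 fell, with a median of 1.76. This reading was added after the values were seen; without co-10 ZT4 replicate 2, which stood apart from the other petal libraries, 77 of the 153 fell and 24 of the 51 rose, against 3.4% of all genes that fell and 4.59% that rose in that fit. BBX30 is an example, at 44.48 and 49.97 FPKM at ZT4 and 0 and 0.1649 at ZT16 in co-10. FT differs from it, at 4.486 and 0.3935 FPKM at ZT4 and 0.7943 and 1.484 at ZT16.

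Against co-10 at the same hour, 0.929% of genes changed, 122 higher (0.682%) and 44 lower (0.246%) in 35S:CO; this comparison shares the 35S:CO libraries with the one above. Its values for genes named above were FT 7.99 ± 0.71, LEA3 7.15 ± 0.47 and ATMDAR2 -6.65 ± 0.28. Between co-10 and Col-0 at ZT16, 4 genes passed: AT3G28820 and MIR2936 higher (0.0112% of genes), SAG21 and the chloroplast locus ATCG00020 lower (0.0112%). AT3G28820, which shares 38.8% of its 75-base stretches with other loci, was at 58.15 and 77 FPKM in co-10, 41.12 and 25.22 in 35S:CO and 0 and 0.3705 in Col-0 at ZT16. MIR2936 lies wholly inside SAG21 on the same strand, so the 2 cannot be told apart by reads.

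Promoter letters were counted over all genes. CCACA was found, on either strand, in 52.0% of 152 windows of higher genes, in 25.5% of 51 windows of lower genes and in 28.9% of all 17715. CACGTG was found in 19.7% of the higher, 5.9% of the lower and 7.4% of all windows. AAATATCT, the evening element, stood in 3.9%, 2.0% and 5.0%. These shares describe letters in 250 bases, with motifs chosen when the results were known, and no test was made of them.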

How the data were processed

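Stranded mRNA libraries were made from total RNA of petals or seedlings, per the labels' protocols. The authors deposited FPKM values per locus, 1 column per library (16 columns, none left out); that they are FPKM follows from the values themselves. HISAT2, FastQC and the TAIR10 build are named, per the submitters' processing notes, while the quantifier and its use of strand are not stated. FPKM hold no counts, so depth was estimated from the steps between low values, of which 34.6% to 56.6% per petal library were whole reads to within 0.02; counts were therefore not recovered.

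Values were taken as log2(FPKM + 1), which understates the change of low genes. Loci that reached 1 FPKM in 2 or more libraries were fitted with limma 3.58.1 (R 4.3.3), with a trended, robust prior variance: 12 petal libraries with 6 group means, 4 seedling libraries apart, and 16 libraries for the difference between tissues. Tests were two-sided, and a Benjamini-Hochberg adjusted p below 0.05 made a gene called. Differences are ± SE.

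Named were CO, the 15 largest called differences each way (5 in other comparisons) with no overlap between groups and a mean log2 value of at least 1, called members of the 36 lists (2 members where a list had none) and genes called in petals at both times and in seedlings; others are marked as picked later. The members and lists were chosen with earlier results of these data known. Of 710 list members, 14 were left out because their locus carries another symbol in TAIR10.1. The alternatives changed the pseudocount, filter, scaling, prior variance, libraries in the fit and replicate block.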

Additional observations from a re-analysis of the deposited data

Results flagged for a closer look

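Differences between settings were tested as interaction terms in limma, and those of the petal genes with the largest differences are given here as values, on the log2(FPKM + 1) scale and with Benjamini-Hochberg adjusted p under 0.05. The response to 35S:CO was more positive at ZT16 than at ZT4 in petals for CBL6 (by 5.59), COR15A (4.58), UP6 (3.97) and BBX30 (3.88).

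At ZT16 the response was more positive in petals than in seedlings for CBL6 (by 5.49), AT3G28820 (4.83), AT3G47295 (4.26), AMT1;2 (3.99), PDX1.1 (3.57), CO itself (2.31) and UP6 (1.87). It was more negative in petals for AT1G27020 (-5.14), AT3G15356 (-4.6), AT5G03285 (-4.52), AT1G72060 (-3.25), CML38 (-3.01), CYP706A1 (-2.99), ENODL1 (-2.7), CSLE1 (-2.6) and ATMDAR2 (-2.0). Except for COR15A, PDX1.1, CML38, CYP706A1 and CSLE1, each of these genes had a mean under 1 FPKM in at least 1 of the groups behind the difference, whose size then depends on the added 1 FPKM. ATMDAR2 was at 0 in both 35S:CO petal libraries, so its -2.0 is set by that floor and is no measure of how far the responses differ.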

How the results depend on the processing

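The 204 changed genes between 35S:CO and Col-0 petals at ZT16 became 121 with a pseudocount of 0.1 FPKM and stood at 137 to 267 under the other settings of filter, scaling, prior variance and fit. Leaving out 1 library gave 48 to 82 for the 4 libraries compared, with 57 higher and 6 lower genes without Col-0 replicate 1, and 247 without co-10 ZT4 replicate 2, an alternative added after seeing the data. The lone library left in a group was assumed to vary like the other groups. Of the named genes, 92 were called in this comparison with all libraries in the fit. No named gene called here changed direction; the named genes that lost their call numbered 47 to 60 when 1 of the 4 libraries was left out, 26 with a pseudocount of 0.1 FPKM, 24 with only the 6 ZT16 libraries and at most 16 under each other setting. Against co-10 the 166 genes became 102 with a pseudocount of 0.1 FPKM, 106 with only the 6 ZT16 libraries and 30 to 448 with 1 library left out, the highest without co-10 ZT16 replicate 1. The 4 genes between co-10 and Col-0 became 8 with a pseudocount of 0.1 FPKM, 9 without a filter, 9 after quantile normalization and 2 to 8 with 1 library left out. The 19 genes at ZT4 became 32 after quantile normalization and 7 to 27 with 1 library left out, with 9 higher and 14 lower without 35S:CO ZT4 replicate 2. The 4 genes that differed by time became 1 to 10 with 1 library left out, the highest without co-10 ZT4 replicate 2. The 2252 seedling genes became 54 to 3129 with 1 library left out, and split into 1130 higher and 869 lower after quantile normalization. The 329 genes that differed by tissue became 125 and 540 with pseudocounts of 0.1 and 4 FPKM, 883 without a filter, 140 with a filter of 5 FPKM, 215 with an untrended prior variance and 121 to 235 with 1 library left out, and split into 86 and 145 after quantile normalization. The 2379 genes that changed from ZT4 to ZT16 in co-10 became 1421 without co-10 ZT4 replicate 2. The cause of these shifts was not tested.

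The labels do not say that a replicate number marks a shared source. The correlations of replicate deviations ran from -0.302 to 0.228 over 15 pairs of petal groups, the highest being that of the 2 groups compared here, and between the seedling groups it was -0.00754. Not all pairs were above 0.1, so the numbers were not taken as pairing the samples. With a replicate block the counts were 214 for 35S:CO against Col-0 at ZT16 (163 higher, 51 lower), 172 against co-10, 5 between co-10 and Col-0, 20 at ZT4, 7 by time, 1178 in seedlings (722 higher, 456 lower) and 273 by tissue. FPKM without counts give no interval for single low values.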
